A study of Mus musculus with 8 samples.

Results

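Krüppel-like factors (KLFs) and early growth response proteins (EGRs) are zinc finger transcription factors, and 10 of their genes were examined here by name: *Klf2*, *Klf3*, *Klf4*, *Klf6*, *Klf7*, *Klf10*, *Klf13*, *Egr1*, *Egr2* and *Egr3*, among the 23356 genes of the table. RNA-seq was performed on bone marrow-derived dendritic cells (DCs) of mice on a C57BL/6 background, given as C57BL/6N in the study's methods. Marrow was cultured for 6 days in GM-CSF and IL-4. Cells that did not adhere firmly were used, and no sort for a cell type was described. Wild-type (WT) DCs and DCs from mice lacking GEF-H1 (GEF-H1-/-, gene *Arhgef2*) were each left untreated or given 100 nM ansamitocin-P3 for 5 h, with 2 libraries for each of the 4 groups. Mice in the study were of either sex and aged from 8 to 16 weeks. Whether the libraries of a group came from separate mice was not given in the sources used here. Ansamitocin-P3 binds tubulin and destabilizes microtubules, and GEF-H1 is an exchange factor for the GTPase RhoA that is held on microtubules. The comparisons ask which genes respond to loss of microtubules and how far the response requires GEF-H1.

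Expression was given as FPKM, fragment numbers scaled to transcript length and library size, with 1 value for each gene and group into which Cuffdiff had combined the libraries, and with a 95% interval. There is therefore no SD and no test against the spread between libraries, and no difference below has a replicate check. The interval from Cuffdiff is printed in brackets as the error of a level. Changes are log2 ratios of FPKM + 1, which understate the change of genes with low FPKM, and their 95% intervals were propagated from those of the levels. The term changed is kept for log2 ratios over 1 or under -1, and genes whose intervals in the groups compared did not overlap were counted separately. Of all genes, 11397 reached 1 FPKM in at least 1 group and had an accepted Cuffdiff status, and all 10 KLF and EGR genes were among them. *Arhgef2* was at 42.3 FPKM (34.5 to 50.0) in untreated and 45.9 FPKM (36.9 to 54.9) in treated WT DCs. DCs of GEF-H1-/- mice had 4.59 FPKM (3.54 to 5.63) untreated and 4.16 FPKM (3.22 to 5.11) treated, so the levels of the deleted gene ran with the genotype labels.

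KLFs bind GC-rich and CACCC sequences through zinc fingers at the end of the protein, and differ in the rest of it, which recruits coactivators in some and the corepressors CtBP or Sin3A in others. In blood cells they are best known for holding lymphocytes and monocytes at rest (KLF2), for monocyte differentiation (KLF4) and for inflammatory gene expression in macrophages (KLF6). EGRs are immediate early factors, switched on within minutes of a stimulus through ERK, ELK proteins and serum response factor (SRF), and are held in check by the corepressors NAB1 and NAB2.

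The cells carried DC transcripts. All 7 DC markers passed the filter, with a summed level of 4528 FPKM in untreated WT, 5884 in treated WT, 3824 in untreated and 4170 in treated GEF-H1-/- DCs, led by *Cd74*. The DC receptor genes *Flt3* and *Cd209a* were low, at 2.10 and 1.81 FPKM in untreated WT DCs. Transcripts of other myeloid cells were abundant as well. The 6 neutrophil markers in the table summed to 30715, 36150, 21129 and 21575 FPKM in the same order of groups, led by *S100a8*, whose FPKM lay outside its own interval in all 4 groups. The 6 macrophage markers summed to 255, 251, 284 and 272 FPKM, the 5 basophil and mast cell markers to 189, 193, 369 and 353 FPKM, and the 2 eosinophil markers to 1103, 915, 448 and 415 FPKM. T cell (19.2, 21.3, 13.0 and 13.2 FPKM), B cell (6.43, 4.41, 4.13 and 3.06 FPKM) and erythroid markers (0.242, 0.647, 2.10 and 2.02 FPKM) were low, and no marker in the table was at 0 in any group. In such bulk RNA, fewer cells of a type and less RNA per cell cannot be told apart.

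Promoters of 7 of the 10 genes were in the RefSeq promoter table (GRCm38.p6), and for 6 of these a start site coincided with the end of the gene's locus in the expression table. In the 250 bases before that start, both strands were searched for the CArG box (the SRF motif), the MEF2 site, the GC box (GGGCGG), the letters CACCC, the AP-1 site TGANTCA and the cyclic AMP response element TGACGTCA. Stretches of 4 promoters are shown. *Klf2* and *Egr2* held the rarest of these motifs, and *Klf6* and *Klf4* are the genes that changed with the drug in WT DCs. Capitals mark the MEF2 site in *Klf2*, the CArG box in *Egr2* and GC boxes in *Klf6* and *Klf4*. The stretches, printed 5′ to 3′ on the strand of the gene, lie upstream of that start and outside exons annotated in GENCODE. They are at chr8:72318812-72319032 (plus strand) for *Klf2*, chr10:67537619-67537868 (plus) for *Egr2*, chr13:5861239-5861481 (plus) for *Klf6* and chr4:55532476-55532725 (minus) for *Klf4*.
Klf2: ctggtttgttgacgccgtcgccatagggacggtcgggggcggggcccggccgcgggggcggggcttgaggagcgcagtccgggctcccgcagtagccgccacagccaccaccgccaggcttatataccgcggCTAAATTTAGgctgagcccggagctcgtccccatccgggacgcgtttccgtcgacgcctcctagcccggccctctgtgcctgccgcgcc
Egr2: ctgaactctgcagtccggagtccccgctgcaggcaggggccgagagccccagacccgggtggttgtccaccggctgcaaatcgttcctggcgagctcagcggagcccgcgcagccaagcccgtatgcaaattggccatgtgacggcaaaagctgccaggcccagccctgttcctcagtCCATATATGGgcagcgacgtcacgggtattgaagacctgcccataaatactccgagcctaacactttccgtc
Klf6: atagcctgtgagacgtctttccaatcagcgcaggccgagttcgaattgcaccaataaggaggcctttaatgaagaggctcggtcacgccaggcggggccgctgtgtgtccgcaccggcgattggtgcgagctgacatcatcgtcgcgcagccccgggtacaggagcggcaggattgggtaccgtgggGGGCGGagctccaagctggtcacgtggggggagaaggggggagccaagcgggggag
Klf4: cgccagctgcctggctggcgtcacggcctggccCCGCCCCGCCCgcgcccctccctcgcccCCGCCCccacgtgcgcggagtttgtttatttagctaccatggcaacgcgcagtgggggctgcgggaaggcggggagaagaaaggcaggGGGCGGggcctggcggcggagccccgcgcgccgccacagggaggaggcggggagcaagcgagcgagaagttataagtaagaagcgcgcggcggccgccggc
The MEF2 site of *Klf2*, CTAAATTTAG, lay 118 to 109 bases before the start, and 0.508% of the 32851 promoters in the table held such a site in the same window. The CArG box of *Egr2*, CCATATATGG, lay 72 to 63 bases before the start, and 1.47% of all promoters held a CArG box. *Egr2* also had RefSeq starts at chr10:67535499 and chr10:67537566, both before the stretch shown. The window of the latter held another CArG box, CCTTTTTTGG. GC boxes were common, in 32.7% of all promoters. *Klf6* had 1 and *Klf4* had 4, the outermost 2 of which share a base. *Klf2* also had 2 GC boxes, *Klf7* had 1 and *Klf13* had 3. CACCC, in 52% of all promoters, occurred 3 times in *Klf7* and once each in *Klf2*, *Klf13* and *Egr2*, and in *Klf13* it shared a base with a GC box. The AP-1 site (6.75% of all promoters) and TGACGTCA (1.55%) were in none of these 6 windows. A match describes the letters only, and binding was not measured.

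Ansamitocin-P3 moved *Klf6* and *Klf4* in opposite directions in WT DCs. Of the 10 genes, 2 changed, *Klf6* upwards and *Klf4* downwards, against 4.94% of all genes tested. Intervals of treated and untreated cells were apart for 5 of the 10, against 16.8% of all genes: *Klf6* was higher, and *Klf4*, *Klf2*, *Klf10* and *Egr1* were lower. Among all genes, 9.19% were higher and 7.58% lower by that rule. The median log2 change was 0.06 over the 10 genes and 0.00 over all genes, with 5 of the 10 above and 5 below 0.

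*Klf6* (chr13:5861489-5870393, mm10) encodes an activator that raises inflammatory gene expression in macrophages. It was at 56.9 FPKM (43.9 to 69.8) in untreated and 204 FPKM (160 to 247) in treated WT DCs, a 3.58-fold rise and a log2 change of 1.82 (1.38 to 2.27). Without GEF-H1 it was at 51.0 FPKM (39.2 to 62.3) untreated and 109 FPKM (84.0 to 133) treated, 2.13-fold higher, with a log2 change of 1.08 (0.62 to 1.53). Both treated groups lay above both untreated groups with no overlap of intervals, and treated WT DCs lay above treated GEF-H1-/- DCs.

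*Klf4* (chr4:55527137-55532475) encodes a factor of monocyte differentiation. Its level was 27.5 FPKM (21.6 to 33.4) in untreated WT, 10.2 FPKM (7.80 to 12.6) in treated WT, 22.1 FPKM (17.2 to 26.9) in untreated and 12.7 FPKM (9.82 to 15.5) in treated GEF-H1-/- DCs. Untreated cells were higher than treated cells in both genotypes with intervals apart, and the genotypes overlapped under each treatment. The WT ratio was 2.69-fold, and *Klf4* fell by 1.35 on the log2 scale (interval -1.77 to -0.92). Without GEF-H1 the log2 difference was -0.76 (-1.18 to -0.33), short of the limit.

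*Klf2* (chr8:72319062-72321654), the closest relative of *Klf4* and a gene of resting lymphocytes and monocytes, was at 22.0 FPKM (14.4 to 25.2) untreated and 11.6 FPKM (7.22 to 13.1) treated in WT DCs. DCs lacking GEF-H1 had 25.9 FPKM (16.7 to 29.1) untreated and 16.7 FPKM (10.5 to 18.7) treated. It was lower in treated cells of both genotypes, with intervals apart in WT DCs and overlapping in GEF-H1-/- DCs. The log2 differences were -0.87 (-1.35 to -0.39) and -0.60 (-1.07 to -0.13), neither past the limit. When groups were rescaled to the same sum of FPKM, *Klf2* passed the limit in WT DCs.

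**Figure D1:**
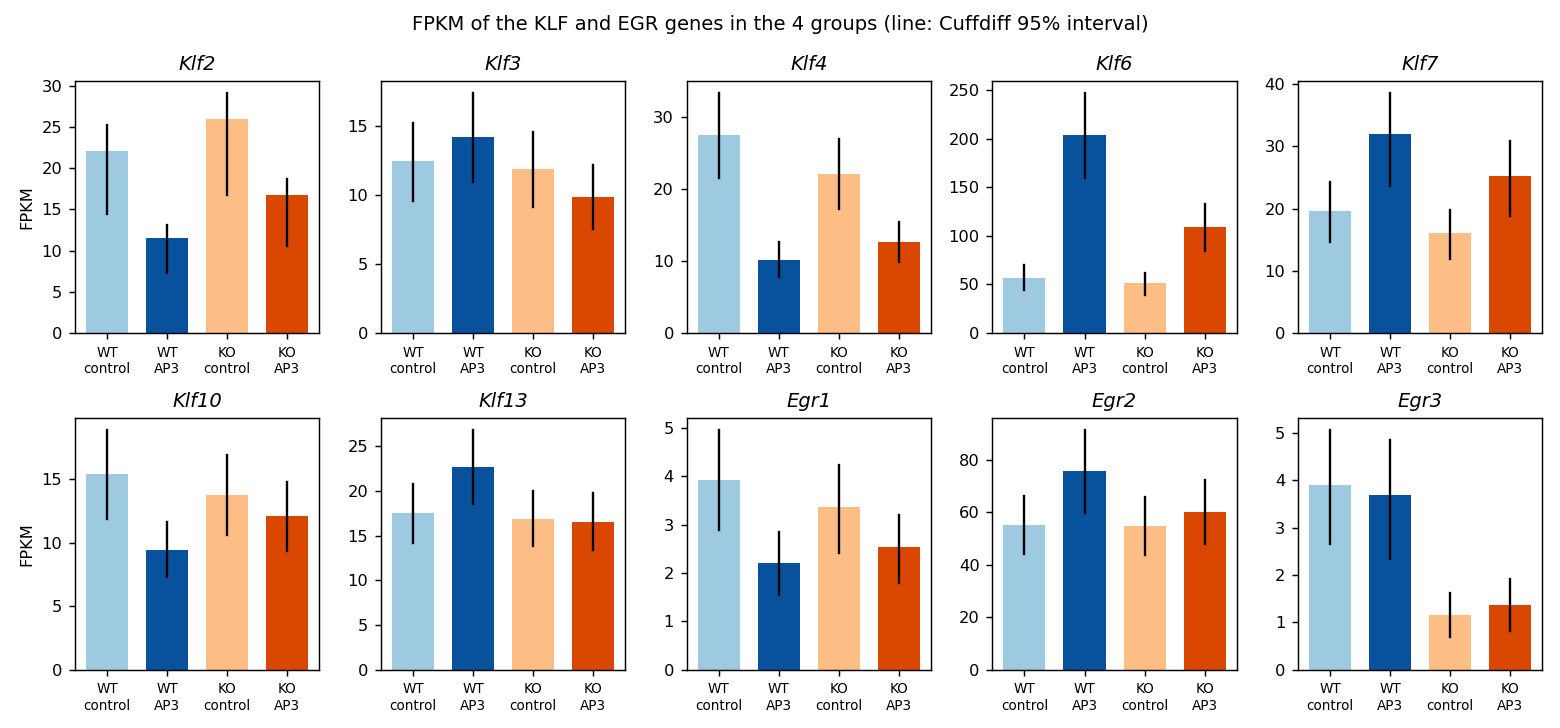
FPKM (vertical axis, from 0, a separate scale for each gene) of the 10 KLF and EGR genes in the 4 groups, as bars with the 95% interval from Cuffdiff as a line. *Klf6* stands at 204 FPKM in treated WT DCs and 109 FPKM in treated GEF-H1-/- DCs, and *Egr3* is at 1.17 and 1.37 FPKM in the GEF-H1-/- groups.

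*Klf7* encodes an activator of the same subgroup as *Klf6*. It was at 19.5 FPKM (14.7 to 24.2) and 32.0 FPKM (23.6 to 38.6) in untreated and treated WT DCs, and at 16.0 FPKM (11.9 to 19.8) and 25.2 FPKM (18.9 to 30.9) in GEF-H1-/- DCs. Treated cells had the higher value in both genotypes, by 0.68 (0.22 to 1.15) and 0.62 (0.15 to 1.09) on the log2 scale, but their intervals overlapped those of untreated cells. *Klf3*, whose product represses through CtBP, was at 12.4, 14.2, 11.9 and 9.88 FPKM in untreated WT, treated WT, untreated GEF-H1-/- and treated GEF-H1-/- DCs, and all 4 intervals overlapped. Its log2 differences with the drug were 0.18 (-0.25 to 0.61) in WT, where the sign turned on rescaling to the same sum of FPKM, and -0.24 (-0.68 to 0.19) in GEF-H1-/- DCs.

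*Klf10* and *Klf13* encode factors that recruit Sin3A. *Klf10*, an early gene of TGF-β signalling, was at 15.4 FPKM (11.9 to 18.9) in untreated and 9.45 FPKM (7.26 to 11.6) in treated WT DCs, against 13.7 FPKM (10.6 to 16.8) and 12.1 FPKM (9.30 to 14.8) in GEF-H1-/- DCs. Treated WT DCs lay below untreated WT DCs with intervals apart, and the GEF-H1-/- groups overlapped each other. The log2 differences were -0.65 (-1.08 to -0.22) and -0.17 (-0.60 to 0.26). *Klf13*, which activates *Ccl5* in T cells, was at 17.5 FPKM (14.2 to 20.8) and 22.7 FPKM (18.5 to 26.8) in WT and at 16.9 FPKM (13.8 to 20.0) and 16.6 FPKM (13.3 to 19.8) in GEF-H1-/- DCs. No pair of these groups that differed in treatment or genotype alone had intervals apart. Other annotated transcripts overlap the loci of *Klf3*, *Klf7* and *Klf13*, some of them antisense. Whether Cuffdiff was run with strand is not given in the sources used here, so fragments from these transcripts cannot be told apart from those of the 3 genes.

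The EGR genes stood at unequal levels and none changed with the drug. *Egr2* (chr10:67537869-67542188), which limits activation in lymphocytes and is induced by IL-4 in macrophages, was at 55.2 FPKM (44.1 to 66.2) in untreated and 75.7 FPKM (59.8 to 91.3) in treated WT DCs, and at 54.6 FPKM (43.5 to 65.6) and 60.0 FPKM (47.7 to 72.1) in GEF-H1-/- DCs. All 4 intervals overlapped, with log2 differences of 0.45 (0.04 to 0.86) in WT DCs and 0.14 (-0.27 to 0.54) without GEF-H1. *Egr1*, the immediate early gene of the family, was at 3.93 FPKM (2.88 to 4.96) untreated and 2.21 FPKM (1.54 to 2.84) treated in WT DCs, and at 3.35 FPKM (2.41 to 4.23) and 2.54 FPKM (1.80 to 3.20) in GEF-H1-/- DCs. It was low in every group and lower after the drug in WT DCs, with intervals apart and a log2 difference of -0.62 (-1.04 to -0.20). In GEF-H1-/- DCs that difference was -0.30 (-0.72 to 0.11). *Egr3*, which acts with *Egr2* in lymphocytes, was at 3.91 FPKM (2.66 to 5.07) and 3.68 FPKM (2.35 to 4.85) in WT DCs, and its level with the drug overlapped that without it in each genotype.

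In DCs lacking GEF-H1, *Klf6* was the 1 of the 10 genes that changed with ansamitocin-P3, against 1.08% of all genes. Intervals were apart for 2 of the 10, *Klf6* higher and *Klf4* lower, against 3.7% of all genes. The median log2 difference over the 10 genes was -0.10, and over all genes -0.01. Differences with the drug were smaller in size without GEF-H1 for all of the 10 genes but *Klf3* and *Egr3*, as the plot of changes by genotype shows. The drug's effect was smaller there over all genes as well, with 4.94% changed in WT DCs and 1.08% without GEF-H1. On rescaling to the same sum of FPKM, *Klf7* was larger without GEF-H1 (0.58 against 0.41 in WT DCs). *Egr3* was then smaller (0.11 against -0.28). The difference between genotypes in the drug's effect, WT minus GEF-H1-/- on the log2 scale, passed 1 in either direction for 0 of the 10 genes, against 1.9% of all genes. The propagated interval of that difference left out 0 for 1 gene, *Klf6*, against 8.29% of all genes. For *Klf6* the difference was 0.75 (0.11 to 1.38). That call depended on scale: with the groups rescaled to the same sum of FPKM it was 0.51 (-0.13 to 1.15), and the intervals of *Klf4* and *Klf10* left out 0 in its place. With the groups rescaled by their median ratio to untreated WT DCs, the difference for *Klf6* was 0.75 (0.11 to 1.38), and its interval alone left out 0. Without rescaling, *Klf4* came next with -0.59 (-1.19 to 0.01), then *Klf10* with -0.48 (-1.09 to 0.13). At the other end *Klf7* differed by 0.06 (-0.60 to 0.72), and its sign turned on rescaling to the same sum of FPKM. The drug's effects in WT and in GEF-H1-/- DCs rest on separate groups, but each shares a group with the comparisons between genotypes.

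**Figure D2:**
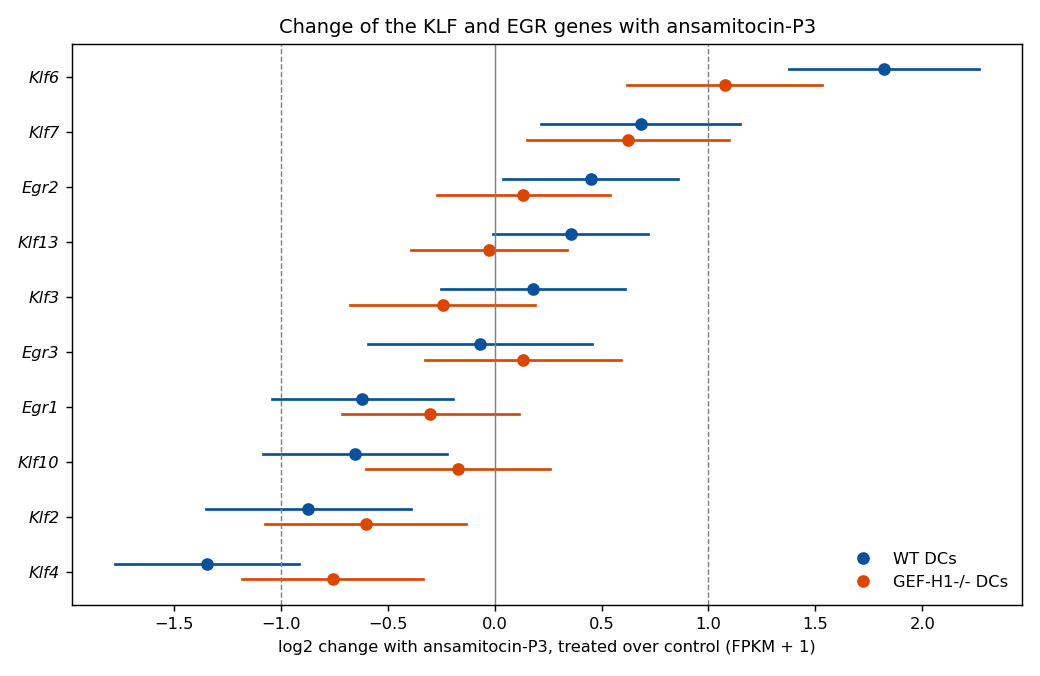
Log2 change of each gene with ansamitocin-P3 (horizontal axis, treated over untreated, FPKM + 1) in WT DCs (blue) and GEF-H1-/- DCs (orange), with 95% intervals propagated from those of Cuffdiff. Dashed lines mark 1 and -1, and *Klf6* at 1.82 and 1.08 and *Klf4* at -1.35 in WT DCs are the points beyond them.

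**Figure D3:**
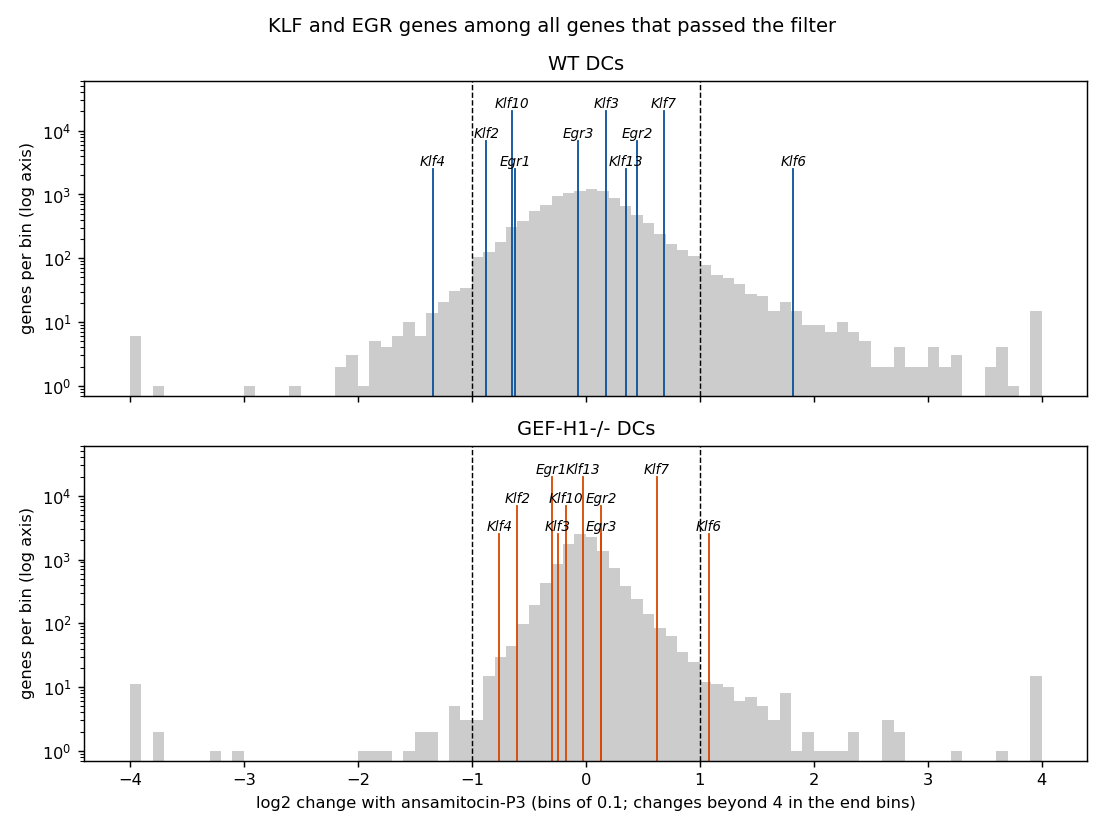
Number of genes (vertical log axis) by log2 change with ansamitocin-P3 in bins of 0.1 for the 11397 genes tested, in WT DCs (top) and GEF-H1-/- DCs (bottom), with the 10 KLF and EGR genes as coloured lines. *Klf6* lies at percentile 99.1 and *Klf4* at percentile 0.4 in WT DCs, and at percentiles 99.3 and 0.5 in GEF-H1-/- DCs.

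Among all genes tested, ordered by their change, *Klf6* stood at percentile 99.1 in WT DCs and 99.3 without GEF-H1, and *Klf4* at percentile 0.4 and 0.5. From the 5th to the 95th percentile, all genes spanned -0.69 to 0.86 in WT DCs and -0.35 to 0.44 in DCs lacking GEF-H1. *Klf2* was at percentile 2.4 and 1.1, and *Klf7* at 92.3 and 97.5. Treated and untreated columns did not share a common total: the summed FPKM of all genes was 609360 in untreated WT, 739523 in treated WT, 599331 in untreated and 617423 in treated GEF-H1-/- DCs. Rescaling the groups to the same sum shifted the median log2 change of all genes by -0.24 in WT DCs and by -0.04 in GEF-H1-/- DCs, and the difference between genotypes in the drug's effect by -0.20.

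Between untreated GEF-H1-/- and WT DCs, *Egr3* was the member that changed, 1 of 10 genes against 1.88% of all genes. It was at 1.17 FPKM (0.688 to 1.63) in untreated and 1.37 FPKM (0.813 to 1.91) in treated GEF-H1-/- DCs. Both of these lay below both WT groups with intervals apart. The untreated levels differed 3.35-fold and the treated levels 2.68-fold, and on the log2 scale of FPKM + 1 *Egr3* fell by 1.18 (-1.65 to -0.71) between the untreated groups. Intervals were apart for 1 of the 10 genes here, against 4.74% of all genes. The other 9 genes lay between -0.30 (*Klf4*) and 0.23 (*Klf2*), and *Egr2*, at -0.02, turned sign on rescaling to the same sum of FPKM.

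*Egr3* (chr14:70077445-70080157) was a low gene in every group. The bounds of its intervals were whole multiples of a step of 0.0313 FPKM shared by the 4 groups, to within 0.0001 of a step, and its levels equalled 125, 118, 37.3 and 43.9 steps in untreated WT, treated WT, untreated GEF-H1-/- and treated GEF-H1-/- DCs. Whether a step is 1 fragment is not given in the sources used here. With a pseudocount of 5 FPKM its log2 difference between untreated groups was -0.53, and with 0.1 FPKM it was -1.66.

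Several marker lists differed between the genotypes along with *Egr3*. Among neutrophil markers, *Camp* was at 189 and 15.0 FPKM in untreated WT and GEF-H1-/- DCs and *Ltf* at 399 and 145 FPKM, while *Elane* and *Mpo* were higher in GEF-H1-/- DCs, so 4 of 6 changed, against 1.88% of all genes. The intervals of *Elane* ran from 0 to 93.1 FPKM in untreated WT and from 0 to 152 FPKM in untreated GEF-H1-/- DCs, so that value is uncertain. By intervals 3 of the 6 were lower (*Camp*, *Ltf* and *S100a8*) and 1 was higher (*Mpo*), against 4.74% of all genes. Both eosinophil markers were lower, *Prg2* at 984 and 411 FPKM. Of 5 basophil and mast cell markers 2 were higher past the limit, and their summed level was 189 FPKM in untreated WT and 369 FPKM in untreated GEF-H1-/- DCs, led by *Prss34*. By intervals 4 of these 5 were higher. All 4 T cell markers that passed the filter were lower in untreated GEF-H1-/- DCs, with a median log2 difference of -0.46. Intervals were apart for 1 of them, *Cd8a*. All 3 B cell markers were lower, with a median of -0.32 and intervals overlapping. The 1 erythroid marker that passed, *Hbb-bs*, was at 0.0458 FPKM in WT and 1.43 FPKM in GEF-H1-/- DCs, past the limit. It reached the 1 FPKM of the filter in GEF-H1-/- DCs only, so its direction was fixed by the filter and carries no weight. None of the 7 DC and none of the 6 macrophage markers changed between untreated genotypes. By intervals 1 of the 7 DC markers was higher in GEF-H1-/- DCs, *Cd209a*, at 1.81 FPKM (1.25 to 2.36) in WT and 3.30 FPKM (2.39 to 4.24) in GEF-H1-/- DCs, while *Zbtb46* was lower, at 14.8 FPKM (11.6 to 18.1) and 9.09 FPKM (6.74 to 11.7), with intervals overlapping. The macrophage markers gave 0 of 6 by intervals. The part of these cells in the level of *Egr3* was not tested. Neutrophil, eosinophil, and basophil and mast cell lists stood apart in treated cells as well, with neutrophil sums of 36150 FPKM in WT and 21575 FPKM in GEF-H1-/- DCs. Between treated genotypes 1 of 6 macrophage markers changed, *C5ar1*, lower in GEF-H1-/- DCs, against 4.06% of all genes. By intervals 2 of the 6 were apart, *C5ar1* lower and *Mertk* higher, against 13.7% of all genes. Of the 7 DC markers 0 changed there, and 2 were higher by intervals, *Flt3* and *Cd209a*.

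After treatment, 0 of the 10 genes differed past the limit between GEF-H1-/- and WT DCs, against 4.06% of all genes. Intervals were apart for 2, *Egr3* and *Klf6*, both lower in GEF-H1-/- DCs, against 13.7% of all genes. The log2 differences were -0.98 (-1.49 to -0.47) for *Egr3* and -0.90 (-1.35 to -0.46) for *Klf6*. *Klf2* had the highest value in the other direction, 0.50 (0.02 to 0.97). The median over the 10 genes was -0.33, and over all genes -0.03, and rescaling to the same sum shifted the latter by 0.23.

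Levels are compared between genes as FPKM, which is per length. In untreated WT DCs *Klf6* and *Egr2* led at 56.9 and 55.2 FPKM with overlapping intervals. They were followed by *Klf4*, *Klf2*, *Klf7*, *Klf13*, *Klf10* and *Klf3*, from 27.5 down to 12.4 FPKM, each of which overlapped its neighbour in this order, and by *Egr1* and *Egr3*, which overlapped each other and lay apart from the rest. In treated WT DCs *Klf6* stood apart from *Egr2*, *Egr2* from *Klf7*, and *Klf4* had moved from place 3 to place 7. Untreated GEF-H1-/- DCs had *Egr2* and *Klf6* at the top, again overlapping, and *Egr3* at the bottom, apart from *Egr1*. *Klf6* made up 33.2% of the summed FPKM of the 7 KLF genes in untreated WT, 67.1% in treated WT, 32.4% in untreated and 53.8% in treated GEF-H1-/- DCs, where the sums were 171, 304, 158 and 202 FPKM. The EGR sums, 63.0, 81.6, 59.1 and 63.9 FPKM, were mostly *Egr2*.

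Among the 10 other KLF genes, some were barely detected, and 3 were higher with the drug in WT DCs with intervals apart. Of the 10, 5 passed the filter and 0 changed in either genotype, a count near the share of all genes. That share was 4.94% in WT DCs and 1.08% without GEF-H1. The median log2 difference of the 5 was 0.67 in WT DCs and 0.45 without GEF-H1. Intervals were apart for 3 in WT DCs, against 9.19% of all genes in that direction, and for 1 without GEF-H1, against 2.75%, all higher with the drug. *Klf9*, a target of glucocorticoid receptor, was at 9.11 and 17.4 FPKM in untreated and treated WT DCs and at 11.3 and 17.4 FPKM in GEF-H1-/- DCs. *Klf8*, a CtBP-binding repressor like *Klf3*, was at 3.20, 6.97, 2.14 and 3.28 FPKM in untreated WT, treated WT, untreated GEF-H1-/- and treated GEF-H1-/- DCs. The log2 difference of *Klf8* in WT DCs was 0.92 (0.51 to 1.34), just under the limit. *Klf11*, a relative of *Klf10*, was at 2.35, 4.35, 1.53 and 2.65 FPKM in the same order. *Klf5*, at 4.97, 2.80, 2.84 and 2.12 FPKM, was the 1 of the 5 with lower values after the drug, and *Klf16* was at 12.6, 17.4, 12.9 and 13.7 FPKM. *Klf1*, *Klf12*, *Klf14*, *Klf15* and *Klf17* stayed under 1 FPKM in all groups. Of the related SP genes 4 of 9 passed the filter and 0 changed in any comparison, against 4.94% of all genes with the drug in WT DCs and 1.08% without GEF-H1. Their median log2 difference in WT DCs was 0.06, as over the 10 KLF and EGR genes, and the 9 summed to 62.6, 63.9, 60.0 and 60.5 FPKM. *Ctbp1* (75.2 and 85.6 FPKM in WT DCs), *Ctbp2* (25.6 and 30.9 FPKM) and *Fhl3* (14.9 and 30.7 FPKM), corepressors of KLF3 and KLF8, gave 0 changed genes, with intervals of *Fhl3* apart in WT DCs.

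**Figure D4:**
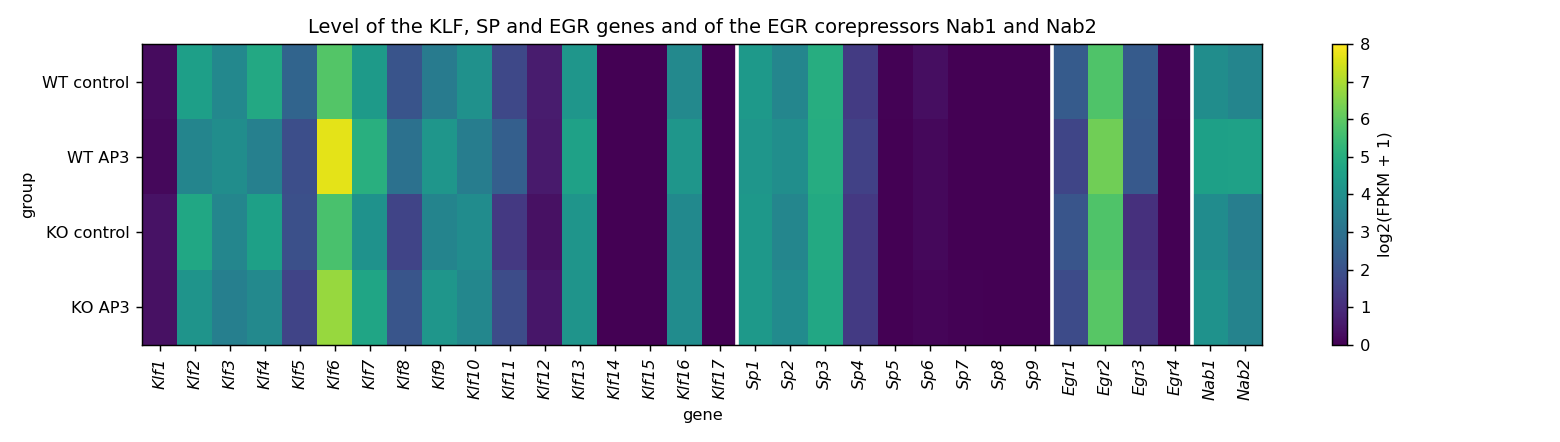
Level, as log2(FPKM + 1) by colour, of the 17 KLF, 9 SP and 4 EGR genes and of *Nab1* and *Nab2* (columns) in the 4 groups (rows). *Klf6* in treated WT DCs is the brightest cell, and the genes that stayed under 1 FPKM are dark in every row.

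The EGR corepressors had higher values in treated WT DCs. *Nab1* was at 14.2 FPKM (11.1 to 17.1) and 22.3 FPKM (18.0 to 26.5) in untreated and treated WT DCs, intervals apart, and at 13.7 and 15.8 FPKM in GEF-H1-/- DCs. *Nab2*, itself a target of EGRs, was at 11.5 FPKM (5.78 to 17.3) and 23.0 FPKM (11.2 to 35.0) in WT and at 9.62 FPKM (3.27 to 16.0) and 11.0 FPKM (4.02 to 17.9) in GEF-H1-/- DCs. Its intervals were wide and overlapped throughout, its log2 difference of -1.01 (-2.11 to 0.09) between treated genotypes passed the limit, and its locus in the table spans the neighbouring *Stat6*, so that value is uncertain. *Egr4* and *Wt1* did not pass the filter.

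Many immediate early genes that are usually induced with *Egr1* rose where *Egr1* did not. Of 18, 16 passed the filter, and in WT DCs 10 rose, against 3.66% of all genes, and 0 fell, with a median log2 change of 1.22 against 0.00 over all genes. Without GEF-H1, 2 rose, *Dusp1* and *Jun*, against 0.807% of all genes, and the median was 0.24. *Dusp1*, a phosphatase that inactivates MAP kinases, was at 14.3 and 128 FPKM in untreated and treated WT DCs and at 15.0 and 78.3 FPKM in GEF-H1-/- DCs. The AP-1 gene *Junb* was at 96.0, 253, 82.9 and 109 FPKM, and the antiproliferative gene *Btg2* at 30.4, 129, 28.4 and 46.2 FPKM, in untreated WT, treated WT, untreated GEF-H1-/- and treated GEF-H1-/- DCs. The nuclear receptor gene *Nr4a1*, at 3.70, 10.3, 1.53 and 1.55 FPKM, was lower without GEF-H1 and stood at similar levels there with and without the drug. The other 6 that rose in WT DCs were *Nr4a2*, *Jun*, *Zfp36*, *Ier5*, *Atf3* and *Ier3*. *Fos*, the classical partner of *Egr1* in this response, was also low, at 2.17 and 3.58 FPKM in untreated and treated WT DCs. The log2 difference of *Fos* there was 0.53 (0.13 to 0.93), opposite in sign to that of *Egr1*, with intervals overlapping. For *Fos*, the difference between genotypes in the drug's effect was 0.58 (0.02 to 1.15), which left out 0. Between treated genotypes 4 of the 16 were lower in GEF-H1-/- DCs past the limit (*Nr4a1*, *Nr4a2*, *Btg2* and *Junb*), against 2.06% of all genes. The difference between genotypes in the drug's effect passed 1 for 3 of them, against 1.36% of all genes in that direction. Only 1 time after treatment was measured, so an earlier rise of *Egr1* or *Fos* was not tested.

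**Figure D5:**
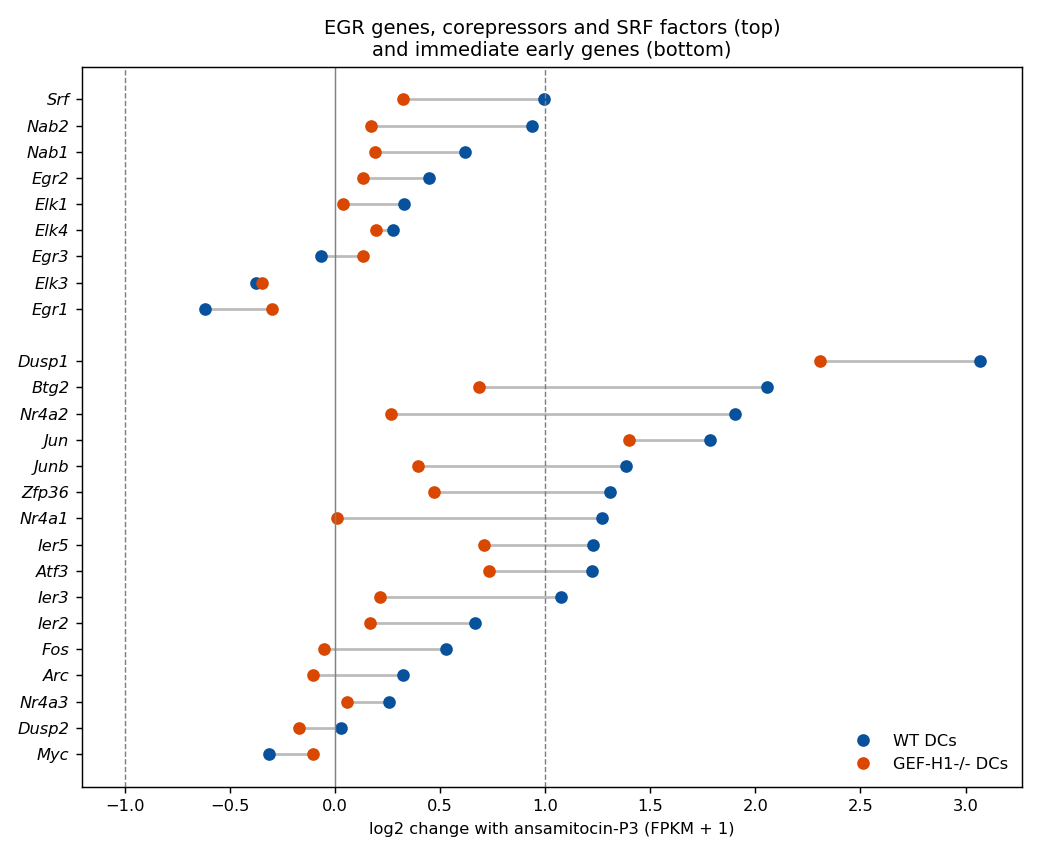
Log2 change with ansamitocin-P3 (horizontal axis, FPKM + 1) in WT DCs (blue) and GEF-H1-/- DCs (orange) of the EGR genes, *Nab1*, *Nab2*, *Srf* and the ELK genes (top) and of the 16 immediate early genes that passed the filter (bottom), with dashed lines at 1 and -1. *Dusp1* is at 3.07 and 2.31, while *Egr1* is at -0.62 and -0.30.

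Of 6 SRF and ternary complex genes in the table, 0 changed with the drug. Beside the counts of this and the kinase lists, 4.94% of all genes changed in WT DCs and 1.08% without GEF-H1, so counts of 0 in lists this short lie near the share of all genes. *Srf* came closest, at 18.6 FPKM (14.8 to 22.2) and 38.1 FPKM (29.5 to 46.6) in WT and at 17.1 FPKM (13.5 to 20.6) and 21.7 FPKM (17.0 to 26.3) in GEF-H1-/- DCs, with intervals apart in WT DCs and a log2 difference just under the limit. *Elk1*, *Elk3* and *Elk4* had overlapping intervals with and without the drug. Along the ERK1/2 route, 6 of 6 kinase genes passed the filter and 0 changed, with a median log2 difference of 0.29 in WT DCs and 0.02 without GEF-H1. Along the ERK5 and MEF2 route that drives *Klf2* and *Klf4* in endothelium, 7 of 8 passed and 0 changed, and 3 were higher in treated WT DCs with intervals apart, against 9.19% of all genes, while *Klf2* and *Klf4* were lower. These were *Mapk7* (ERK5) at 14.1 and 23.9 FPKM, *Mef2d* at 18.9 and 33.1 FPKM and *Mef2a* at 22.1 and 33.5 FPKM in untreated and treated WT DCs. In GEF-H1-/- DCs *Mapk7* was at 12.5 and 14.6 FPKM and *Mef2d* at 18.4 and 20.0 FPKM, with intervals overlapping, and *Mef2a* at 17.4 and 26.2 FPKM, with intervals apart. The log2 difference of *Mef2a* was 0.58 (0.21 to 0.96) in WT and 0.56 (0.18 to 0.94) in GEF-H1-/- DCs. Only RNA values were used here, and they do not test the activity of these kinases and factors. For the former of these kinase routes, the study reported from immunoblots that ERK activation by the drug required GEF-H1.

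Genes known as targets or partners of these factors in other settings moved in mixed ways. Beside the counts of these lists, 4.94% of all genes changed with the drug in WT DCs and 1.08% without GEF-H1. Of 5 KLF4 targets, 1 changed with the drug in each genotype, *Cd14*, a coreceptor for endotoxin, which was at 14.7 and 250 FPKM in WT and at 12.4 and 27.3 FPKM in GEF-H1-/- DCs. It rose where *Klf4* fell. *Retnla*, a gene of alternative activation, was at 510 FPKM in untreated WT and 2397 FPKM in untreated GEF-H1-/- DCs. Treated cells had similar levels of 537 and 2378 FPKM. Of 6 KLF2 targets 3 passed the filter and 0 changed with the drug. Of 11 EGR targets 1 changed in WT DCs, the growth factor gene *Csf1*, at 32.3 and 176 FPKM, and 0 in GEF-H1-/- DCs, where *Csf1* was at 54.8 and 86.1 FPKM. *Rnf128*, a ubiquitin ligase gene that EGR2 and EGR3 induce in T cells, was at 4.34 FPKM in untreated WT and 13.4 FPKM in untreated GEF-H1-/- DCs, opposite in direction to *Egr3*.

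Lists around KLF6 and KLF10 gave 2 and 1 changed genes in WT DCs. Of 5 KLF6 partners and targets from macrophages, 2 changed in WT DCs, *Hif1a* from 50.9 to 109 FPKM and *Ccl2* from 34.8 to 147 FPKM, against 4.94% of all genes. In GEF-H1-/- DCs 1 changed, against 1.08% of all genes: *Ccl2*, from 78.9 to 190 FPKM, and *Hif1a* was at 50.4 and 62.5 FPKM. *Bcl6*, which KLF6 represses in macrophages, was at 4.71 and 5.56 FPKM in WT DCs. Of 9 TGF-β signalling genes 1 changed in WT DCs, the corepressor gene *Tgif1* from 12.8 to 33.0 FPKM, and 0 in GEF-H1-/- DCs, where it was at 14.7 and 17.9 FPKM. *Ccl5*, the KLF13 target, was at 492, 599, 431 and 438 FPKM in untreated WT, treated WT, untreated GEF-H1-/- and treated GEF-H1-/- DCs, each outside its own interval, and did not change. Among macrophage markers, *Mertk* fell with the drug in WT DCs, from 5.46 to 0.778 FPKM, and *C5ar1* rose from 33.1 to 83.9 FPKM, so 2 of 6 changed there and 0 in GEF-H1-/- DCs. The other 4 were also lower in treated WT DCs, so that 5 of the 6 lay below 0, with a median log2 difference of -0.42, and intervals were apart for *Adgre1* as well, at 35.9 and 20.4 FPKM. In GEF-H1-/- DCs the same 5 were lower, with a median of -0.17, and intervals were apart for *Mertk*, at 4.56 and 2.53 FPKM, and for *C5ar1*, the higher one, at 21.5 and 35.5 FPKM. By intervals these are 3 of 6 and 2 of 6, against 16.8% and 3.7% of all genes. Of the 7 DC markers 0 changed with the drug, and intervals were apart for 3 in WT DCs, against the same 16.8%, and for 0 without GEF-H1. In untreated and treated WT DCs *Flt3* was at 2.10 and 1.07 FPKM and *Cd209a* at 1.81 and 0.808 FPKM, both lower, and *Irf4* at 99.6 and 170 FPKM, higher. The part of macrophage and DC content in the levels of *Klf4*, *Klf6* and *Cd14* was not tested.

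Across the 4 groups and among 8894 genes that reached 5 FPKM in at least 1, the profile of centred log2(FPKM + 1) nearest to that of *Klf6* was *Ccdc71l*, at a Euclidean distance of 0.038, then *Arl4c* (0.114) and *S1pr3* (0.125). *Ccdc71l* was at 28.4, 102, 24.4 and 53.7 FPKM in untreated WT, treated WT, untreated GEF-H1-/- and treated GEF-H1-/- DCs. Nearest to *Klf4* were *Adra2a* (0.068), an adrenergic receptor gene at 19.9, 7.41, 15.7 and 9.52 FPKM, *Usp18* (0.207) and *Serpina3g* (0.233). With 4 points in a profile, such likeness is a description.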

How the data were processed

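RNA from 8 libraries (2 for each of 4 groups) was sequenced by the authors as stranded, paired-end poly(A) libraries. The deposited FPKM were made by the authors with Cuffdiff (version 1.05 as written in their notes, build mm10), which pooled the libraries of a group into 1 value with a 95% interval. The aligner and annotation behind this table are not given in the sources used here. Columns were matched to groups by name. The WT columns name no genotype and were assigned by elimination, and 0 columns of per-sample values were left unused. Library depth is not known from FPKM.

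Of 23356 genes, 106 that Cuffdiff marked LOWDATA and 1 marked HIDATA were left out, and 11397 reached 1 FPKM in at least 1 group. Log2 ratios of FPKM + 1 were computed for 5 comparisons in Python 3.11.15 with pandas 2.3.3 and numpy 2.4.6, and drawn with matplotlib 3.10.9. Limma, planned for tables of single libraries, was not run. Intervals of changes were propagated from those of Cuffdiff on the log scale, taking groups as independent, and cover the error Cuffdiff gives. The computation was tested on simulated data. Named were *Arhgef2*, the 10 genes, list members past the limit or highest in their list, *Nab1* and *Nab2*, and the 3 most alike profiles of each gene changed in WT DCs. Other list members were named after their values were seen. The 10 genes, 14 gene lists and 8 marker lists were chosen with earlier results of these data known. Of 152 listed symbols, 149 were found, 3 of them by a RefSeq synonym. Promoters came from RefSeq (GRCm38.p6) and exons from GENCODE. Protein sequences were not analysed here, so zinc finger counts, protein lengths and identities are not given. Alternatives covered pseudocount, filter, scaling and call rule.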

Additional observations from a re-analysis of the deposited data

Results flagged for a closer look

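For 3 genes the values with ansamitocin-P3 lay on opposite sides of the untreated values in the 2 genotypes. *Klf3* had a log2 difference of 0.18 in WT DCs and -0.24 without GEF-H1, 0.42 apart (propagated interval -0.19 to 1.03), and its sign in WT DCs turned on rescaling to the same sum of FPKM. *Klf13* had 0.35 and -0.03, which are 0.38 apart (-0.13 to 0.89). *Egr3* had -0.07 and 0.13, with a difference of -0.20 (-0.89 to 0.50). With 1 pooled value for each group, the difference between genotypes was not tested for any of them.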

How the results depend on the processing

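No paired analysis was possible because each group is given as 1 pooled value, and for the same reason leave-one-out and the fit with the replicate number as a block were not run. Counts below are in the order drug in WT DCs, drug in GEF-H1-/- DCs, untreated genotypes, treated genotypes, and difference between genotypes in the drug's effect. Genes changed numbered 956, 212, 372, 801 and 387 with a pseudocount of 0.1 FPKM, 318, 77, 101, 206 and 123 with 5 FPKM, 2017, 454, 600, 1687 and 935 with a limit of 1.5-fold, and 1911, 422, 540, 1567 and 945 with the rule that intervals are apart or, for the last, that the interval of the difference leaves out 0. Of the 10 KLF and EGR genes, 6, 4, 1, 2 and 2 passed 1.5-fold and 5, 2, 1, 2 and 1 passed the interval rule. The call of *Egr3* between untreated genotypes was lost with a pseudocount of 5 FPKM or a filter of 5 FPKM, which leave 0 of the 10 genes changed there, and a pseudocount of 0.1 FPKM added *Egr3* between treated genotypes, which gives 1 of the 10. Rescaling to the same sum of FPKM gave 3 of the 10 changed with the drug in WT DCs, adding *Klf2*. After the data were seen, the interval rule was also run on rescaled values. For the difference between genotypes in the drug's effect, rescaling to the same sum of FPKM left 2 of the 10 genes, *Klf4* and *Klf10*, and lost *Klf6*. Rescaling by the median ratio kept *Klf6* alone there. In the other 4 comparisons the same members passed under both rescalings. Of 200 recomputed log2 values of single genes, 197 stayed within the propagated interval, 0 reversed a call and 3 moved, all *Egr3*, to -1.66 and -0.53 between untreated and -0.45 between treated genotypes. Reversals were counted only for values past the limit, which most of the values were not. The sign turns of *Klf3*, *Egr2* and *Klf7* on rescaling to the same sum of FPKM, given above, were therefore not counted. All 3 moves of *Egr3* came with a pseudocount of 0.1 or 5 FPKM, which weighs on low values. Both rescalings left *Egr3* within its propagated interval. Low FPKM limits *Egr3*, and pooled libraries limit all of the values.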
